A study of Mus musculus with 2 samples.

Results

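The miR-99/100 family of the newborn mouse retina was followed through its 6 mature arms. They are the 5p and 3p products of the hairpins miR-99a, miR-99b and miR-100, found by name among the 1358 mature miRNAs of the deposited tables, and all 6 had an entry. The series holds 1 group of 2 small RNA libraries, replicate 1 and replicate 2, made from whole retina of newborn mice (postnatal day 0) that were wild-type and of the outbred strain CD-1. The labels name no treatment or altered allele, and no condition was compared. They do not say whether the libraries came from separate animals, so the spread between the libraries may be technical.

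A miRNA hairpin yields a 5p and a 3p arm, of which usually 1 is loaded into Argonaute as the guide and pairs with messenger RNAs through its seed, bases 2 to 8. miR-100 belongs to the oldest miRNA families known in animals, and in vertebrates its hairpins lie in clusters with a let-7 and a miR-125 hairpin. The family is known for restraining growth through the kinase mTOR and the insulin-like growth factor receptor, and let-7 and miR-125 are known to promote the passage of retinal progenitors from early to late stages.

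The mature sequences show why the 5p arms are treated as 1 seed family and why the 3p arms are not. They are given 5′ to 3′ from RefSeq (GRCm38.p6), in which all 6 names matched, with the seed in capitals.
miR-99b-5p: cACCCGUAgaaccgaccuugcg
miR-99a-5p: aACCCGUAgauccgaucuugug
miR-100-5p: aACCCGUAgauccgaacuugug
miR-99b-3p: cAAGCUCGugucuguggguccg
miR-99a-3p: cAAGCUCGuuucuaugggucu
miR-100-3p: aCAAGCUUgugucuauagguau

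The 3 5p arms carried the same seed, and no other listed miRNA had it, neither in its RefSeq sequence nor in its most frequent read. Numbering bases from 1 at the 5′ end, over 22 positions, miR-99a-5p and miR-100-5p differed at 1 base, U16A, and shared their first 15 bases. miR-99b-5p differed from miR-99a-5p at 4 positions, A1C, U11A, U16C and U21C, all outside the seed. The 3p arms of miR-99a and miR-99b shared a seed of their own and differed at U10G, A14G and U21C over 21 positions. miR-100-3p stood alone, with a seed that no other listed miRNA had.

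The hairpins all lay on the plus strand inside a longer transcript (GENCODE M21 on GRCm38). Mir99b at chr17:17830188-17830257 was in an intron of the protein-coding gene Spaca6, with miR-99b-5p at chr17:17830194-17830215 and miR-99b-3p at chr17:17830232-17830253. Mir99a at chr16:77598936-77599000 was in an intron of the long non-coding host Mir99ahg, with its 5p arm at chr16:77598940-77598961 and its 3p arm at chr16:77598977-77598997. Mir100 at chr9:41531425-41531504 was in introns of the non-coding genes 3110039I08Rik and Gm49317, with its 5p arm at chr9:41531437-41531458 and its 3p arm at chr9:41531471-41531492. The hairpins of miR-99a and miR-100 are printed to show how the arms are placed, with both arms in capitals.
Mir99a: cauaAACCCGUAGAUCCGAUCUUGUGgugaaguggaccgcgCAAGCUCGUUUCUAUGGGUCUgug
Mir100: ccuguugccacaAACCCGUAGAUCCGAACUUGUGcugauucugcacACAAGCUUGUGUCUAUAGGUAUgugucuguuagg
The arms were 15 bases apart in Mir99a and 12 bases apart in Mir100.

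The libraries held 8337902 and 8118196 counts after rounding, and levels are given relative to these totals as CPM, the usual unit of scaled read counts. The tissue label was checked against 5 miRNAs of the neural retina, all detected in both libraries and together at 398217 and 419768 CPM. By mean level the highest of them was miR-9-5p, at 227200 CPM, and the lowest miR-124-3p, at 649 CPM. Single markers of other cells stood above miR-124-3p. They were miR-204-5p of pigment epithelium (3389 CPM), miR-126a-3p of endothelium (905 CPM) and miR-184-3p of lens, cornea and surface epithelium (804 CPM). Markers of pigment epithelium, vessel, lens and surface epithelium, muscle, blood and leukocytes made up 0.585% and 0.507% of the counts. Of these 18 markers 3 were at 0 in both libraries, namely the leukocyte miRNAs miR-150-5p and miR-223-3p and the surface epithelium miRNA miR-205-5p. The part of these other cells in the family's levels was not tested. In whole tissue, fewer cells of a type and less RNA per cell cannot be told apart, and the ligation yield of a sequence is part of any level compared between different miRNAs.

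The family held 2.50% of the counts in replicate 1 (exact binomial 95% interval 2.49 to 2.51) and 2.47% in replicate 2 (2.46 to 2.48), a mean of 2.48% ± 0.0173 (SD, n = 2). Nearly all of it was 5p, at 24057 ± 245 CPM of a family total of 24842 ± 173 CPM. Intervals here cover counting error only, since amplified reads are not independent molecules.

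miR-99b-5p was the highest member. It had 15222 CPM in replicate 1 (95% interval 15139 to 15305) and 15670 CPM in replicate 2 (15585 to 15756), and was at rank 12 of the 1358 miRNAs. It made up 61.0% and 63.4% of the family's counts.

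miR-99a-5p followed at rank 20, with 8424 CPM in replicate 1 (8362 to 8486) and 7606 CPM in replicate 2 (7547 to 7666). Its share of the family was 33.7% and 30.8%. The values of miR-99b-5p and miR-99a-5p did not overlap, and within the libraries miR-99b-5p exceeded miR-99a-5p by 1.81-fold and 2.06-fold (mean log2 ratio 0.95 ± 0.13, SD, n = 2). A ratio of 2 miRNAs is called here where the exact 95% intervals of both libraries lie on the same side of 0 and the mean log2 ratio exceeds 2 SD. Of the 15 pairs of members, 14 were called by this rule, which also called 90.0% of all pairs of miRNAs at 10 CPM or more. That background leaves out miR-99a-3p and miR-100-3p, which lay below 10 CPM.

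miR-100-5p was far below its near-identical relative. It had 584 CPM in replicate 1 (568 to 601) and 608 CPM in replicate 2 (591 to 625), at rank 94. miR-99a-5p exceeded it by 14.4-fold and 12.5-fold (mean log2 ratio 3.75 ± 0.14) and miR-99b-5p by 26.1-fold and 25.8-fold (4.70 ± 0.011). All of these differences were called.

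The 3p arms split into 1 abundant and 2 rare products. miR-99b-3p had 734 CPM in replicate 1 (716 to 753) and 834 CPM in replicate 2 (814 to 854), at rank 85. It thereby stood above the 5p arm of miR-100, with a log2 ratio of miR-100-5p over miR-99b-3p of -0.33 and -0.46 (mean -0.39 ± 0.090, called). The values of both arms did not overlap, since the higher library of miR-100-5p lay below the lower library of miR-99b-3p.

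miR-99a-3p, with the same seed, was near the limit of detection. It had 4 and 9 counts, or 0.480 CPM (0.131 to 1.23) and 1.11 CPM (0.507 to 2.10), at rank 663. Counts of miR-99b-3p exceeded those of miR-99a-3p by a mean log2 ratio of 9.94 ± 0.66 (called), whereas for their 5p arms the mean log2 ratio was 0.95 (0.85 and 1.04). miR-100-3p had no count in replicate 1, which at a limit of 3 counts allows up to 0.360 CPM (0.442 CPM by the two-sided exact interval), and 2 counts in replicate 2, or 0.246 CPM. The pair of miR-99a-3p and miR-100-3p was the 1 pair of members that was not called, and a difference between them was not detectable at this depth.

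**Figure D1:**
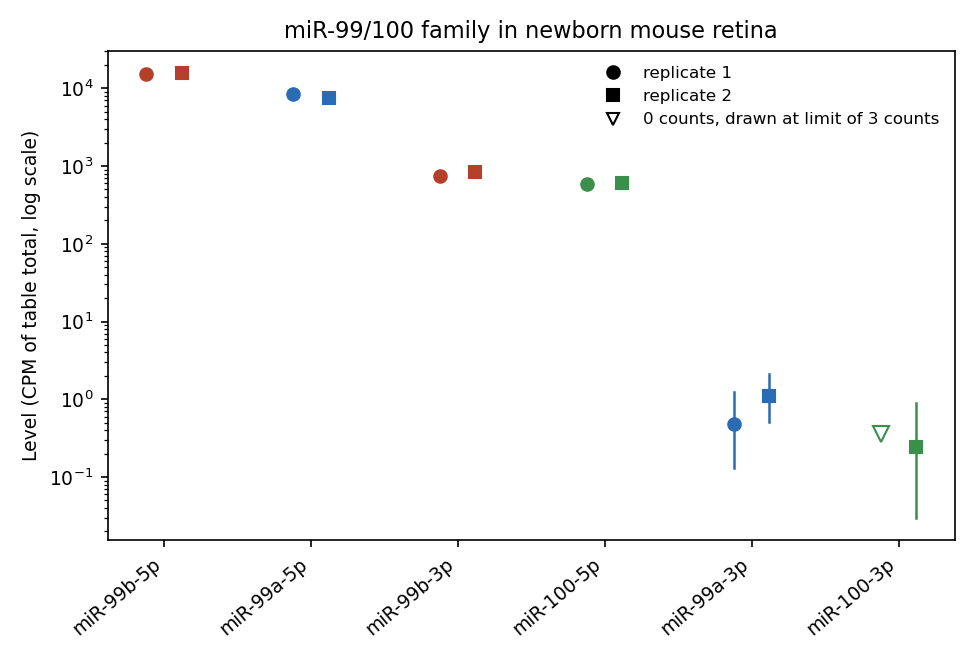
Level of each family member in CPM of the table total (log axis), with 1 circle for replicate 1 and 1 square for replicate 2 and exact 95% counting intervals as vertical lines (hidden by most symbols). The open triangle marks 0 counts, drawn at the level that 3 counts would give; miR-99b-5p is highest at 15222 and 15670 CPM, and miR-99a-3p and miR-100-3p do not exceed 1.11 CPM.

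Each 5p arm was set beside its nearest miRNAs by mean level, which were picked by rank alone. miR-99b-5p lay between miR-25-3p, a member of a cluster linked to proliferation, and let-7g-5p. Its ratio to miR-25-3p was small but called (log2 ratio of miR-25-3p over miR-99b-5p 0.083 ± 0.019), while its difference from miR-181a-5p was not (0.19 ± 0.21). It exceeded let-7g-5p by a log2 ratio of 0.32 ± 0.10 and miR-92a-3p by 0.39 ± 0.043, both called.

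miR-99a-5p had the level of the neuronal miR-128-3p within counting error. In replicate 1 miR-128-3p had 8493 CPM against 8424 CPM for miR-99a-5p, and in replicate 2 it had 7588 CPM against 7606 CPM. The mean log2 ratio of miR-128-3p over miR-99a-5p was 0.0042 ± 0.011, and the interval in each library included 0. miR-99a-5p and miR-21a-5p, a miRNA of many tissues, changed places between the libraries (log2 ratio 0.16 and -0.15) and could not be ranked. Its differences from let-7c-5p and from let-7d-5p (log2 ratio of miR-99a-5p over let-7d-5p 0.21 ± 0.080) were called.

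miR-100-5p lay below miR-335-3p and miR-342-5p, by a log2 ratio of 0.12 ± 0.050 and 0.098 ± 0.036, both called. Its ratios over miR-7b-5p (0.10 ± 0.20) and miR-146b-5p (0.11 ± 0.11) were not called. Altogether 7 of these 12 ratios to rank neighbours were called, beside 13.2% of all pairs that lie 1 or 2 ranks apart at 100 CPM or more. This background was not matched for level. Whether the members differ from other pairs of like level was not tested.

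Both arms of each hairpin come from the same precursor, so their ratio shows arm use, apart from ligation yield. All 3 family hairpins gave mostly 5p reads. Arm use was compared for 312 hairpin names, those whose 5p and 3p rows summed to 10 counts or more in each library. By a limit of 4-fold in both libraries, 40.4% of them were dominated by the 5p arm, miR-99a, miR-99b and miR-100 included, and 36.9% by the 3p arm.

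The size of the ratio separated miR-99b from the other 2 hairpins. In miR-99b the 3p arm took 4.60% of the hairpin's counts in replicate 1 (4.49 to 4.72) and 5.05% in replicate 2 (4.94 to 5.17). The 5p arm exceeded it by 20.7-fold and 18.8-fold (mean log2 ratio 4.30 ± 0.10, SD, n = 2). This is below the median of 5.42 for the 126 hairpins dominated by the 5p arm, among which miR-99b was at rank 89.

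In miR-99a the 3p arm took 0.00569% (0.00155 to 0.0146) and 0.0146% (0.00666 to 0.0277) of the hairpin's counts, and the hairpin was at rank 4 of the 126. The log2 ratio of 5p over 3p was 13.93 in replicate 1 and 12.67 in replicate 2, or 13.30 ± 0.89. The log2 ratio was thus larger than that of miR-99b by 9.56 and 8.43 (SD 0.79). For miR-100 the 5p arm was at least 1623-fold higher than the 3p arm in replicate 1, against the limit of 3 counts in that library, and the two-sided exact interval began at 1320-fold. In replicate 2 it was 2466-fold higher (95% interval 682 to 20368), from 2 counts of the 3p arm. In both libraries miR-99b thus had the smallest ratio of the 3 hairpins.

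**Figure D2:**
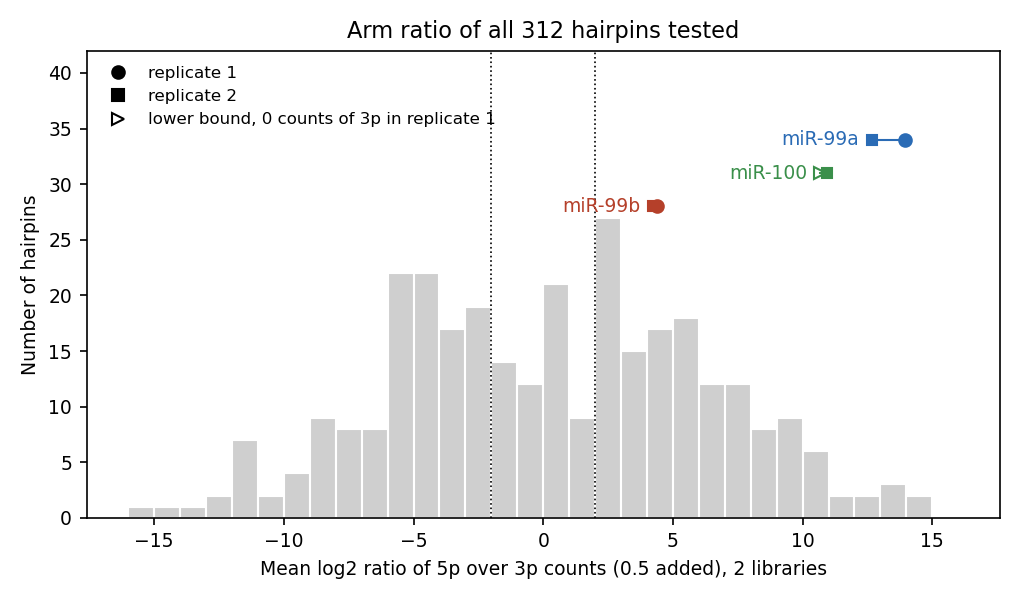
Histogram of the mean log2 ratio of 5p over 3p counts for the 312 hairpins tested, with dotted lines at the 4-fold limits. Symbols above the bars show the ratio of the 3 family hairpins in each library; miR-99b lies among the bulk of the hairpins dominated by the 5p arm and miR-99a and miR-100 lie in the right tail, the open triangle of miR-100 being a lower bound.

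Each family hairpin heads a cluster with a let-7 and a miR-125 hairpin on the same strand, so the levels of the partners were set beside those of the family. The 3 clusters differ in compactness. Mir99b, Mirlet7e and Mir125a lie within 692 bases of chromosome 17, with gaps of 94 and 367 bases. On chromosome 16, Mirlet7c-1 follows Mir99a after 656 bases but Mir125b-2 lies 46522 bases further. On chromosome 9, Mirlet7a-2 follows Mir100 after 5211 bases and Mir125b-1 lies another 45114 bases away.

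The compact cluster on chromosome 17 is the one whose mature arms each come from a single hairpin, so its composition can be read from the counts. Its 6 arms together reached 24882 ± 615 CPM (SD, n = 2). miR-99b-5p took 60.1% and 64.1% of the cluster's counts, miR-125a-5p 25.0% and 20.4%, and let-7e-5p 11.5% and 11.7%. miR-99b-3p took 2.90% and 3.41%, more than the 3p arms of let-7e (0.160% and 0.120%) and miR-125a (0.300% and 0.324%).

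Within this cluster miR-99b-5p exceeded let-7e-5p by 5.24-fold and 5.49-fold (mean log2 ratio 2.42 ± 0.047). It exceeded miR-125a-5p, which had 6341 CPM in replicate 1 and 4979 CPM in replicate 2, by 2.40-fold and 3.15-fold (1.46 ± 0.28). Both differences were called, but the ratio to miR-125a-5p moved between the libraries by more than its counting intervals of 2.38 to 2.43 and 3.11 to 3.18. The order miR-99b, miR-125a, let-7e held for the 5p and for the 3p arms in both libraries. Among the 3p arms, miR-99b-3p exceeded miR-125a-3p by a log2 ratio of 3.33 ± 0.088 and let-7e-3p by 4.50 ± 0.46, and miR-125a-3p exceeded let-7e-3p by 1.17 ± 0.37, all called.

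On chromosome 16 the partner arms let-7c-5p and miR-125b-5p also have a hairpin elsewhere (Mirlet7c-2 and Mir125b-1), so their counts cannot be assigned to the cluster. miR-99a-5p stood just below let-7c-5p, at 0.899-fold and 0.895-fold (log2 ratio -0.16 ± 0.0050), and above miR-125b-5p, at 5.40-fold and 5.46-fold (2.44 ± 0.011). Both ratios were called and were nearly the same in both libraries. So was the ratio of miR-99b-5p over miR-100-5p, which come from different clusters (SD 0.011). Whether ratios within a cluster are steadier than those of other pairs was not tested. The 3p arms of this cluster are specific to their hairpins, and there miR-99a was the lowest, whereas its 5p arm lay between those of let-7c and miR-125b. miR-125b-2-3p had 330 and 321 counts, let-7c-1-3p 55 and 30, and miR-99a-3p 4 and 9. The log2 ratio of miR-125b-2-3p over let-7c-1-3p was 2.99 ± 0.58 (called), and that of let-7c-1-3p over miR-99a-3p was 2.65 ± 1.37 (not called, within 2 SD).

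On chromosome 9 miR-100-5p was below both partners. Its counts were 0.0314-fold and 0.0347-fold those of let-7a-5p (log2 ratio -4.92 ± 0.10) and 0.375-fold and 0.436-fold those of miR-125b-5p (-1.31 ± 0.16), both called. let-7a-5p is also made from Mirlet7a-1, outside the cluster, and miR-125b-5p also from Mir125b-2 on chromosome 16. The hairpin-specific arms were uneven here too, with 1396 and 1361 counts for miR-125b-1-3p, 1 and 0 for let-7a-2-3p, and 0 and 2 for miR-100-3p.

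The 3p arms of the 2 miR-125b hairpins gave an order opposite to that of the 5p arms of their family neighbours. miR-125b-1-3p, from the cluster of miR-100, exceeded miR-125b-2-3p, from the cluster of miR-99a, by 4.23-fold in both libraries (log2 ratio 2.08 ± 0.0023, called). The 5p arm of miR-99a exceeded that of miR-100 by a log2 ratio of 3.75, as given above. The 3p arms of miR-125b differ in sequence, so their ligation yield is part of the ratio. Because 3p arms are set beside 5p arms here, arm use is part of the comparison too. The output of the hairpins was not measured, and the ratio of miR-99a-3p over miR-100-3p was not called.

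Of the 17 ratios computed among the arms of these clusters 16 were called, the exception being let-7c-1-3p over miR-99a-3p. The same rule called 90.0% of all pairs of miRNAs at 10 CPM or more, which leave out let-7c-1-3p and miR-99a-3p. The plot by cluster shows that the family member leads its cluster on chromosome 17. On chromosome 9 miR-100-5p lies below let-7a-5p and miR-125b-5p, whose counts include hairpins outside that cluster.

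**Figure D3:**
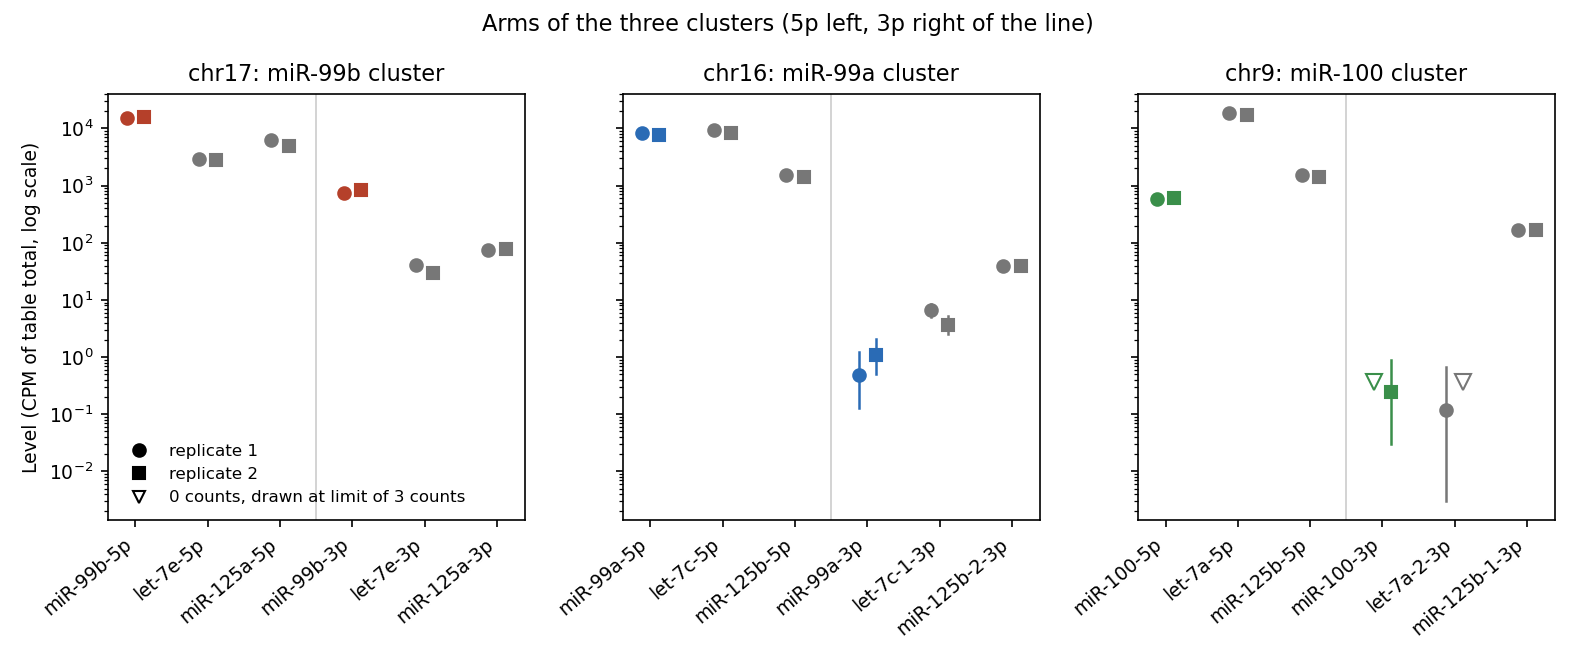
Level in CPM of the table total (log axis) of the family member, the let-7 and the miR-125 arms named after each of the 3 clusters, 5p arms left and 3p arms right of the grey line, with exact 95% counting intervals. Circles are replicate 1, squares replicate 2, and open triangles 0 counts drawn at the level of 3 counts; miR-125b-5p is the same value in 2 panels, since it is made from both hairpins.

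miR-10a and miR-10b are the nearest relatives of the family outside its seed. They are encoded in the Hox gene clusters, Mir10a at chr11:96317165-96317274 and Mir10b at chr2:74726070-74726137 in introns of Hoxd3 and Hoxd4, and are known from the trunk rather than the head. Their sequences show the added base that lies within the seed and changes it.
miR-100-5p: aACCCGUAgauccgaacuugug
miR-10a-5p: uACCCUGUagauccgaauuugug
miR-10b-5p: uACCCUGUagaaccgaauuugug
The longest stretch shared by miR-100-5p and miR-10a-5p was 11 bases, guagauccgaa, downstream of most of the seed.

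These relatives had few counts in the retina. miR-10a-5p had 9 and 8 counts (1.03 ± 0.0664 CPM), miR-10b-5p had 9 and 13 (1.34 ± 0.369 CPM), and miR-10a-3p had 0 in both libraries. Even miR-100-5p, the lowest 5p arm of the family, exceeded miR-10b-5p by a log2 ratio of 8.76 ± 0.35 and miR-10a-5p by 9.09 ± 0.13. All 6 ratios of the 5p members over miR-10a-5p and miR-10b-5p were called. Among all pairs of miRNAs at 10 CPM or more, which leave out both miR-10 arms, 90.0% were called.

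The most frequent read of each member shows which form of the arm was sequenced. For the 3 5p arms and miR-99b-3p it was the same in both libraries and began at the annotated base, so the seed was the one given above. As background, 180 miRNAs reached 100 CPM; the leading read was identical between the libraries for 97.2% of them, and 93.3% began at the annotated base in both. The reads of the 5p arms are shown to compare their 3′ ends, seed in capitals.
miR-99b-5p: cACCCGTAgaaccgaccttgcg
miR-99a-5p: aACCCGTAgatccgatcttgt
miR-100-5p: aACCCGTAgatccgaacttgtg

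miR-99b-5p, miR-100-5p and miR-99b-3p ended at the RefSeq base, as did 62.1% of the 161 miRNAs at 100 CPM or more with a RefSeq sequence of that name. The read of miR-99a-5p was 21 bases long and lacked the last base in both libraries, a shorter 3′ end seen in 20.5% of those miRNAs. It was the sole 5p member whose most frequent read was shorter than its annotation. miR-125a-5p and miR-125b-5p of the partner clusters also lacked their last base, whereas let-7a-5p, let-7c-5p and let-7e-5p did not.

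The reads of the rare 3p arms rested on few counts. For miR-99a-3p the most frequent read was 1 base longer than RefSeq in replicate 1 and 2 bases longer in replicate 2. The 2 counts of miR-100-3p had a most frequent read with the substitution T10G relative to RefSeq (DNA letters, positions from the 5′ end), so that the annotated sequence itself was not its leading read in either library.

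The deposited counts of the near-identical arms were not whole. The deposited counts of miR-99a-5p (70240.5 and 61750.5) and miR-100-5p (4870.5 and 4932.5) both ended in 0.5 in both libraries, and the counts of the other 4 members were whole. Of the 1358 miRNAs, 121 had a fractional count in either library. The sum of both arms was whole, at 75111 and 66683 counts. How many reads were divided between them was not tested.

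Scaled by table totals, the family's total was 24964.7 CPM in replicate 1 and 24719.4 CPM in replicate 2. With TMM scaling the order turned, at 23962.6 and 25753.1 CPM, as it did with DESeq2 size factors, at 24097.2 and 25609.3 CPM. The members were then compared one by one. The 710 miRNAs that summed to 10 counts or more were each tested with an exact two-sided binomial test against the share expected from the table totals, with Benjamini-Hochberg adjustment over all of them. The test compares 2 libraries of 1 group, not conditions, and called 27.9% of the miRNAs tested, 8.31% higher and 19.6% lower in replicate 2. Among miRNAs at 500 CPM or more it called 88.9%, so a call on an abundant member is common at this depth. Like the intervals, its p-values cover counting error only and do not measure the spread between libraries.

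On the log2 scale miR-99a-5p was at -0.15, lower in replicate 2 (adjusted p = 3.68e-75, exact binomial test). miR-99b-5p was higher there by 0.042 (adjusted p = 2.34e-12, exact binomial test) and miR-99b-3p by 0.18 (adjusted p = 4.53e-12, exact binomial test). Neither miR-100-5p, at 0.057 (adjusted p = 0.153, exact binomial test), nor miR-99a-3p, at 1.12 from 4 and 9 counts (adjusted p = 0.362, exact binomial test), was called. miR-100-3p had too few counts to be tested.

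By table totals the partner arms of miR-99a-5p were lower in replicate 2 too, let-7c-5p at a log2 ratio of -0.14 and miR-125b-5p at -0.16. The rank neighbour miR-128-3p was also at -0.16. With TMM scaling let-7c-5p was at -0.022 and miR-125b-5p at -0.045, the latter not called (adjusted p = 0.0578, exact binomial test). The partners of miR-99b-5p were at -0.35 for miR-125a-5p (called) and -0.024 for let-7e-5p (adjusted p = 0.181, exact binomial test), and let-7e-5p was called higher, at 0.094 and 0.078, with TMM and DESeq2 scaling. Over all tested miRNAs the median was -0.12 by table totals, -0.0037 with TMM and -0.020 with DESeq2, and edgeR put the coefficient of variation beyond counting error at 0.104. With TMM scaling or DESeq2 size factors miR-99b-5p was at 0.16 and 0.14, miR-99b-3p at 0.30 and 0.29 and miR-99a-5p at -0.029 and -0.045, with the same calls. miR-100-5p, at 0.17 and 0.16, was called higher in replicate 2 under both (adjusted p = 1.87e-08 and 4.41e-07, exact binomial test).

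**Figure D4:**
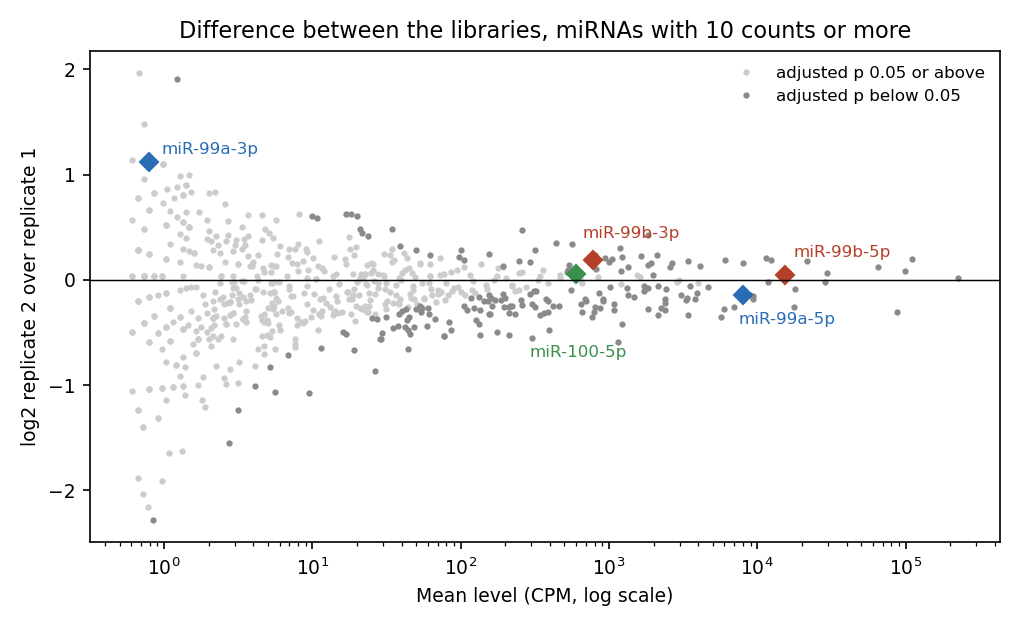
Log2 ratio of replicate 2 over replicate 1 against mean level in CPM (log axis) for the 710 miRNAs with at least 10 counts over both libraries, scaled by the table totals. Diamonds are family members; miR-99a-5p lies below 0 at -0.15, and miR-99b-5p, miR-99b-3p and miR-100-5p lie between 0.042 and 0.18.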

How the data were processed

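Small RNA of 18 to 30 nt was sequenced from 2 libraries of 1 group, per the labels' protocols, and the submitters' processing notes name bcl2fastq 2.17.1.14. For aligner, counter and build the entry is: not given in the sources used here. The deposited table of estimated counts held 1 value per mature miRNA, without scaling. Counts were rounded to whole numbers for all values here. The CPM deposited by the authors summed, in both libraries, to 88.5% of what CPM over the whole table sums to, and CPM computed here was 1.13 times the deposited CPM. Another deposited table held, as text, the most frequent read of each miRNA marked against miRBase 21, per the file headers. Each log2 ratio used 0.5 added to each count. Intervals and the calls of ratios used exact binomial (Clopper-Pearson) 95% limits, two-sided; a count of 0 was also given the limit of 3 counts. The coefficient of variation and TMM factors came from edgeR 4.0.16, size factors from DESeq2 1.42.0, run under R 4.3.3. Python 3.11.15 was used for the rest, with SciPy 1.17.1 and statsmodels 0.14.6. Calculations were tested on simulated data. miRNAs were named by rule: the 6 members, the arms of let-7a, let-7c, let-7e, miR-125a, miR-125b, miR-10a and miR-10b, the 2 miRNAs above and below each 5p member by mean CPM, and any miRNA with the same seed. The members and lists were chosen with earlier results of these data known. At 3 counts, a count of 0 allowed 0.360 CPM in replicate 1 and 0.370 CPM in replicate 2, against 0.442 and 0.454 CPM by the two-sided interval. A further gene of the seed match list is not reported here.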

Additional observations from a re-analysis of the deposited data

How the results depend on the processing

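All 50 ratios between miRNAs kept their direction and their call with 1 count added in place of 0.5 and with counts left unrounded. A called ratio has the same direction in both libraries by the rule itself, so leaving out a library could not reverse it. The family total of 24842 CPM was 21990.5 CPM with the deposited CPM, and 24719 to 24965 CPM in the single libraries. Its SD of 173 CPM between the libraries was 1266 CPM with TMM and 1069 CPM with DESeq2 size factors, and replicate 2 was then the higher library. The arm calls of the 3 hairpins did not change under any filter or fold limit tried (2-fold and 8-fold included). Their smallest ratio, 18.8-fold for miR-99b in replicate 2, lies above these limits, so the limits could not have changed a call. The numbers of miRNAs higher and lower in replicate 2, 59 and 139 by table totals, were 107 and 80 with TMM and 101 and 88 with DESeq2 size factors, and the median log2 ratio moved from -0.12 to -0.0037 and -0.020. Over all miRNAs with a read in both libraries, 74.8% began at the annotated base, 65.2% had the same most frequent read and 36.7% the annotated 3′ end (cause not tested). No paired analysis was possible because the series has 1 group. Ratios of the rare 3p arms are limited by at most 9 counts per library.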

Other observations

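The seed of the family has an unusual complement. A messenger RNA site that pairs with bases 2 to 8 of the 5p arms reads tacgggt, which holds the dinucleotide CG. Over the longest annotated 3′ UTR of 20971 mouse protein-coding genes (GENCODE M21, sense strand, exact match), 229 or 1.09% held this site. The same search found the site of let-7, ctacctc, in 8.96%, that of miR-125, ctcaggg, in 13.0% and that of the relative miR-10, acagggt, in 12.5%. Of the 16384 possible sites of 7 bases, 14717 occurred in more 3′ UTRs than that of the 5p arms. The site for the seed of miR-99a-3p and miR-99b-3p, cgagctt, also holds CG. It was found in 1.75%, and 12903 sites occurred in more 3′ UTRs. The sites of let-7, miR-125 and miR-10 hold no CG. This is a count of letters in the reference, in which a match is no shown target, and it uses no measurement of the retina.

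The site is shown in 4 genes known from the literature as targets of the family, as examples. They were picked for being known targets, after other values had been seen, and no share of known targets with a site is given. The sites are printed with the match in capitals, for the kinase Mtor, the chromatin remodeller Smarca5, and the growth factor receptors Igf1r and Fgfr3.
Mtor: tgggtaactgagaaaTACGGGTt
Smarca5: ggtagttctttaattTACGGGTc
Igf1r: ctaagtccagtagatTACGGGTa
Fgfr3: ccctcagagacaaatTACGGGTa
The site began at base 289 of the 3′ UTR in Mtor and at base 44 in Smarca5. Expression of these genes was not measured in this series.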
